A study of Hansenula anomala with 15 samples.

Results

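The 8 genes described here encode the enzymes that make isoleucine, valine and leucine up to the final amino group transfer in a yeast, Wickerhamomyces anomalus, which the samples' organism field lists as Hansenula anomala. They were chosen by their KEGG ortholog numbers in the deposited annotation, and each of the 8 numbers found 1 gene among the 6571 genes of the table. The RefSeq symbols of these genes were ILV1, ILV2, ILV6, ILV5, ILV3, LEU4, LEU1 and LEU2. Polyadenylated RNA of whole fermentation broth was sequenced after 0, 16, 32, 48 and 64 h of culture, each time in 3 biological replicates, in a study of volatile compounds in apricot fermentation. The labels give no strain, treatment or genetic change, so the groups differ by time of sampling only as far as they say, and they do not state whether replicates were separate fermentations. P values therefore measure the spread between these samples.

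In yeasts, isoleucine and valine are built by a shared set of mitochondrial enzymes, and leucine branches off from the keto acid that precedes valine. In Saccharomyces cerevisiae each route is held back by its own end product. There the transcription factor Gcn4 raises transcription of many of these genes when amino acids run short, and Leu3 is a transcription factor of leucine synthesis genes. The keto acids of the pathway are also the precursors of fusel alcohols such as isobutanol and isoamyl alcohol, which contribute to the aroma of fermented drinks.

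Libraries held 17.6 to 40.1 M counts, and the floor used, 3 counts, was worth 0.0748 to 0.171 CPM (counts per 1 M in that library), which covers counting error only. The lowest count of any of the 8 genes was 96, for ILV2 in 16 h replicate 2, so every gene stood far above that floor in every library, and all 8 were among the 6327 genes tested. The 2 libraries least like their own group were 16 h replicate 2 and 64 h replicate 3. The rank correlation of 16 h replicate 2 with its group mates was 0.742 at most across 4453 genes, and 64 h replicate 3 reached 0.837 with its own group but 0.951 with 32 h replicate 2. In all, 4 of the 15 libraries were closer to a library of another time point than to their own group. Among them, 32 h replicate 3 reached 0.886 with its own group and 0.965 with 48 h replicate 2. That library was left out only in a fit of its own. Results that rest on 16 h replicate 2 or 64 h replicate 3 are given with and without both. Levels below are CPM scaled by the trimmed mean of M values (TMM), and mean ± SD values have n = 3. Rose and fell are used only of genes past an adjusted p of 0.05 in edgeR's quasi-likelihood test with Benjamini-Hochberg adjustment over all genes tested.

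Summed over the 8 genes, transcripts were more plentiful at 0 h, and in 16 h replicates 1 and 3, than from 32 h on. ILV5 and LEU4 weighed most in the sum at 0 h, with means of 1070 and 906 CPM. By contrast, ILV3 and ILV1 kept 52.6% and 61.8% of their 0 h mean at 32 h. With no scaling applied, the 8 genes together took 0.283% ± 0.0632 of all counts in the 0 h libraries and 0.13% ± 0.0757 in the 16 h libraries. Their share was 0.0552% ± 0.0132 in the 32 h libraries, 0.0671% ± 0.0104 in the 48 h libraries and 0.0455% ± 0.00226 in the 64 h libraries. After scaling their levels summed to 3210 ± 154 CPM at 0 h, 2550 ± 1640 CPM at 16 h, 441 ± 42.5 CPM at 32 h, 396 ± 54.1 CPM at 48 h and 452 ± 104 CPM at 64 h. The SD at 16 h came from replicate 2, whose sum was 725.9 CPM, against 3914 and 3025 CPM in replicates 1 and 3. In bulk RNA, fewer cells that carry a transcript and less of it per cell cannot be told apart. Over the 5 time points 7 of the 8 genes changed, against 68.5% of all genes tested. ILV3 did not pass (adjusted p = 0.174), and ILV1 had the next highest adjusted p, at 0.0373.

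**Figure D1:**
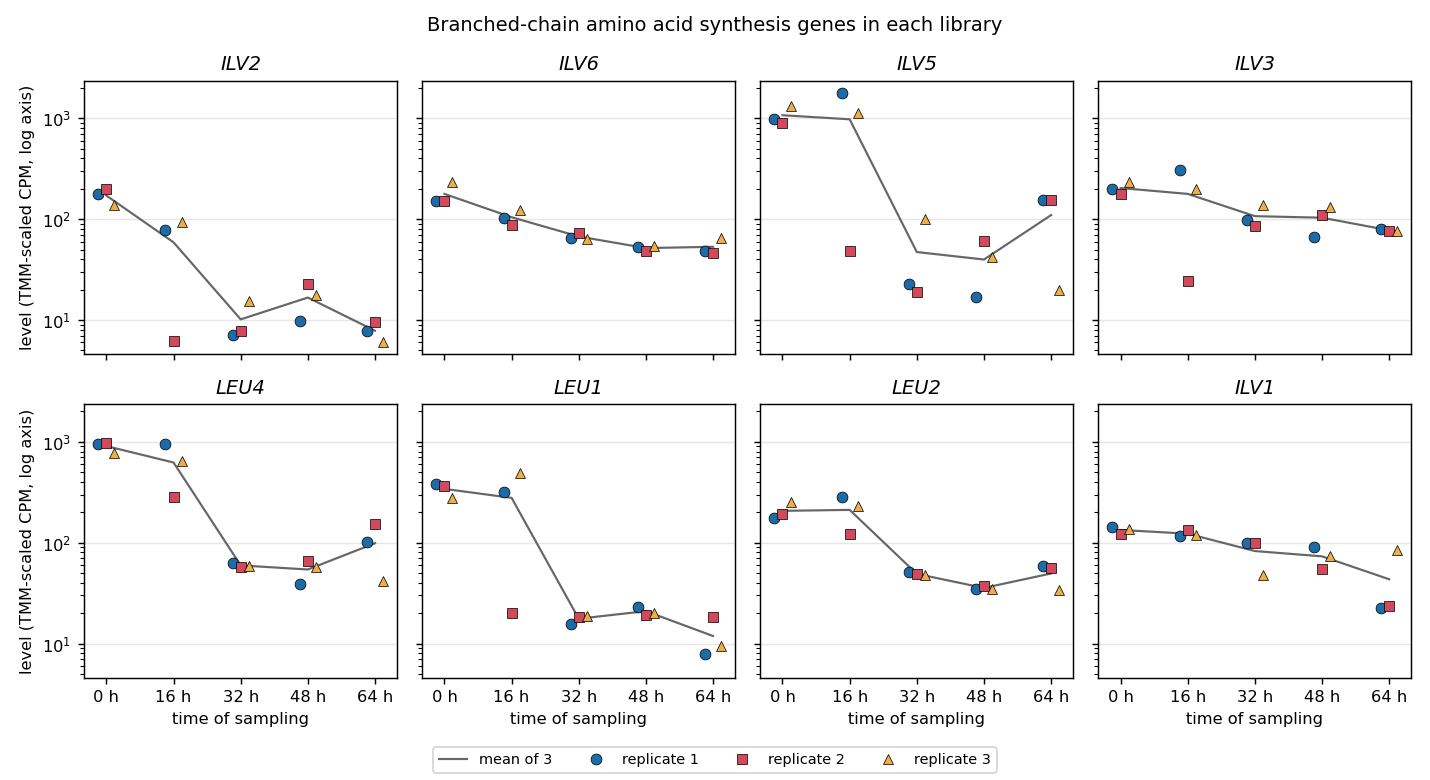
Level of each of the 8 genes in each of the 15 libraries, as TMM-scaled CPM on a log axis, by time of sampling. Symbols are replicates and the line joins the means of 3; ILV5, LEU4, LEU1 and ILV2 stand lower at 32 h than at 0 h by the widest margins, and 16 h replicate 2 lies far under its group mates for ILV2, ILV5, ILV3 and LEU1.

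ILV1, the entry step to isoleucine, encodes the threonine deaminase that turns threonine into ketobutyrate. It did not pass between any adjacent time points with all libraries. Its level was 144, 122 and 135 CPM at 0 h and 116, 132.8 and 119 CPM at 16 h. It stood at 99.8, 99.6 and 48.2 CPM at 32 h, 91.0, 54.6 and 73.9 CPM at 48 h, and 22.5, 23.8 and 83.7 CPM at 64 h. All values from 32 h on lay below all values at 0 h and 16 h, and at 64 h replicates 1 and 2 were far lower than replicate 3. Unlike ILV2, ILV5, ILV3 and LEU1, ILV1 was not low in 16 h replicate 2, where its level was 1.13 times the mean of its group mates.

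Acetolactate synthase, the enzyme of the first shared step, has a catalytic subunit encoded by ILV2, which uses thiamine diphosphate, and a regulatory subunit encoded by ILV6, through which valine inhibits the enzyme in S. cerevisiae. ILV2 stood at 179, 198 and 138 CPM at 0 h and at 77.8, 6.20 and 93.0 CPM at 16 h. Its later values were 7.17, 7.87 and 15.5 CPM at 32 h, 9.68, 22.6 and 17.9 CPM at 48 h, and 7.83, 9.60 and 6.10 CPM at 64 h. The 16 h replicate 2 value thus lay below every 32 h value, while its group mates lay above all of them. ILV6 was more even, with 150.2, 150.3 and 234 CPM at 0 h and 103, 86.7 and 124 CPM at 16 h. It then held 65.7, 73.3 and 63.2 CPM at 32 h, 52.6, 48.2 and 54.3 CPM at 48 h, and 48.9, 46.2 and 64.6 CPM at 64 h. The 0, 16 and 32 h values of ILV6 did not overlap between time points, and each set lay below the one before.

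ILV5 encodes the ketol-acid reductoisomerase that follows, and had the highest mean level per length at 0 h, at 890 ± 191 CPM per kb of gene. Its level was 982, 903 and 1335 CPM at 0 h and 1765, 48.3 and 1121 CPM at 16 h. It was 22.7, 19.0 and 100.1 CPM at 32 h, 16.8, 60.8 and 41.9 CPM at 48 h, and 156, 154 and 19.7 CPM at 64 h. Replicates of ILV5 disagreed by more than 5 times within the 16, 32 and 64 h groups, and at 64 h replicates 1 and 2 were above every 32 h and 48 h value while replicate 3 was not. ILV3 encodes dihydroxy-acid dehydratase, an iron-sulfur enzyme and the last shared step before the amino group is added. It had 198, 178 and 236 CPM at 0 h and 309.6, 24.1 and 201 CPM at 16 h. ILV3 held 98.1, 85.7 and 138 CPM at 32 h, 67.2, 111 and 132.5 CPM at 48 h, and 79.3, 77.2 and 76.4 CPM at 64 h. Its lowest value of all libraries was that of 16 h replicate 2, and its 64 h values were the closest to each other of any gene at any time (SD 1.49 CPM).

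The leucine branch starts with LEU4, which encodes isopropylmalate synthase, the step that leucine inhibits in S. cerevisiae. LEU4 had 956, 982 and 779.9 CPM at 0 h and 942, 286 and 641 CPM at 16 h. It had 63.2, 56.9 and 58.3 CPM at 32 h, 38.5, 66.2 and 57.9 CPM at 48 h, and 102, 152 and 41.9 CPM at 64 h. Every value from 32 h on was below every 16 h value, 16 h replicate 2 included. LEU1, which encodes the iron-sulfur enzyme isopropylmalate isomerase, had 379.6, 367 and 277 CPM at 0 h and 319, 20.01 and 495 CPM at 16 h. LEU1 then had 15.6, 18.5 and 18.7 CPM at 32 h, 23.2, 19.3 and 20.3 CPM at 48 h, and 7.83, 18.3 and 9.44 CPM at 64 h. Outside 16 h replicate 2, every LEU1 value at 16 h was more than 10 times every value from 32 h on. LEU2, which encodes isopropylmalate dehydrogenase, had 176, 191 and 252 CPM at 0 h and 281, 122 and 230.4 CPM at 16 h. Its later values were 50.9, 48.8 and 47.3 CPM at 32 h, 34.5, 37.5 and 34.6 CPM at 48 h, and 58.4, 56.1 and 33.9 CPM at 64 h. The replicates of LEU2 were close at 32 h and 48 h, with an SD of 1.78 and 1.69 CPM.

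**Figure D2:**
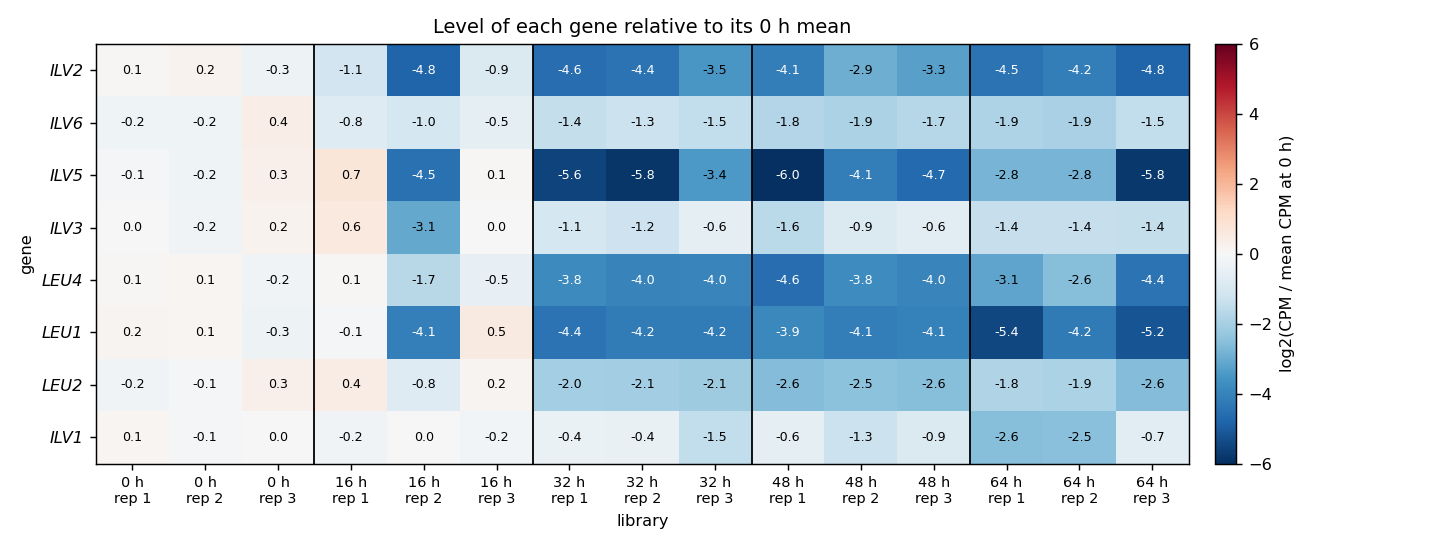
Level of each gene in each library relative to its own mean at 0 h, as log2 ratios of TMM-scaled CPM, with blue for lower and red for higher. The column of 16 h replicate 2 holds -4.79 for ILV2, against -1.14 and -0.88 in its group mates, and -4.47 for ILV5, against 0.72 and 0.06, and from 32 h on ILV2, ILV5, LEU4 and LEU1 run lower than ILV6, ILV3 and ILV1 in every library, by the least in 64 h replicates 1 and 2.

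The order of the genes by level per length differed between time points, with ILV5 first at 0, 16 and 64 h and ILV6 first at 32 and 48 h. At 0 h ILV5 led with 890 ± 191 CPM per kb, ahead of LEU4 with 506 ± 61.4 CPM per kb, and neither overlapped the gene after it. ILV6, LEU2 and LEU1 followed with means of 199, 189 and 146 CPM per kb, neighbours that overlapped. ILV3, ILV2 and ILV1 came last with means of 96.6, 84.6 and 80.7 CPM per kb and overlapping values. At 16 h ILV5 and LEU4 again had the highest means, 811 ± 719 and 348 ± 183 CPM per kb, but only the lowest ranks, ILV1 and ILV2, were separated without overlap. At 32 h ILV6 led with 75.4 ± 5.86 CPM per kb and did not overlap ILV3 behind it, while the next 5 genes lay between 50.8 and 33.2 CPM per kb. At 48 h ILV6 led again with 57.9 ± 3.52 CPM per kb, overlapping ILV3. At 64 h ILV5 had the highest mean, 91.1 ± 64.8 CPM per kb, followed by ILV6 with 59.6 and LEU4 with 55.1 CPM per kb, and the first 6 genes overlapped from each to the next. At 32, 48 and 64 h LEU1 and ILV2 held the lowest ranks with means of 3.87 to 8.97 CPM per kb, and no value of the gene above them overlapped those of LEU1. Expressed as a share of the 0 h mean, the 32 h mean was 4.4% for ILV5, 5.16% for LEU1, 5.93% for ILV2 and 6.56% for LEU4, against 23.7% for LEU2, 37.9% for ILV6, 52.6% for ILV3 and 61.8% for ILV1.

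Between 16 h and 0 h, the comparison that covers the start of fermentation, 1 of the 8 genes passed the test. ILV6 alone fell (log2 fold change -0.77, SE 0.28, adjusted p = 0.0391) and no gene rose, against 17.8% of all genes fallen and 22.6% risen. At an unadjusted p under 0.05, 2 genes were lower and 0 higher, against 3061 of the 6327 genes tested in either direction. DESeq2 gave 2 and 0 at its adjusted threshold, against 1258 of all genes fallen and 1560 risen. The ILV6 call did not hold without 0 h replicate 3 (adjusted p = 0.142), without 16 h replicate 1 (adjusted p = 0.0848) or 16 h replicate 2 (adjusted p = 0.095), or without either of 32 h replicates 1 and 2 or any 48 h library (adjusted p 0.055 to 0.0578). ILV2 had the largest difference, -1.54 (SE 0.65, adjusted p = 0.0726), with all 3 values at 16 h below all 3 at 0 h, which held for 23.3% of all genes. The median log2 fold change of the 8 genes was -0.24, against 0.09 for all genes. With library size scaling it was -1.02, against -0.60 for all genes, and 3 genes fell: ILV2 (-2.33, adjusted p = 0.0145), ILV6 (-1.38, adjusted p = 0.0104) and LEU4 (-1.36, adjusted p = 0.0209). All genes then split into 620 risen and 1753 fallen, where TMM gave 1432 risen and 1126 fallen. Without 16 h replicate 2 and 64 h replicate 3 the values for ILV5, ILV3 and LEU1 were 0.43, 0.33 and 0.25, where with all libraries they were -0.13, -0.19 and -0.30, and none passed in either fit.

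Between 32 h and 16 h, 5 of the 8 genes fell and none rose, against 17.7% of all genes fallen and 14.1% risen. At an unadjusted p under 0.05, 6 were lower and 0 higher, against 2722 of the 6327 genes tested in either direction. DESeq2 also called 6 lower and 0 higher, against 1338 of all genes fallen and 1052 risen. The falls ran through all 3 leucine branch genes, ILV5 and the catalytic ILV2. LEU1 averaged 17.6 ± 1.71 CPM at 32 h and 278 ± 240 CPM at 16 h (15.8-fold lower, log2 fold change -3.98, SE 0.76, adjusted p = 0.00151). In 16 h replicate 2 LEU1 stood at 20.01 CPM, just above the 32 h values. LEU4 averaged 59.5 ± 3.31 CPM at 32 h and 623 ± 329 CPM at 16 h (10.5-fold lower, log2 fold change -3.39, SE 0.52, adjusted p = 0.000328). For ILV5 the log2 fold change was -4.37 (SE 1.11, adjusted p = 0.00878), for ILV2 -2.54 (SE 0.68, adjusted p = 0.0116) and for LEU2 -2.11 (SE 0.34, adjusted p = 0.000508). ILV6, ILV3 and ILV1 had smaller values of -0.63, -0.73 and -0.57 (adjusted p = 0.0937, 0.355 and 0.354), and when scaled by library size instead these turned to 0.53, 0.62 and 0.54. The median of the 8 genes was -2.32, against -0.06 for all genes. All 3 values at 32 h lay below all 3 at 16 h for 5 genes, LEU4, LEU1, LEU2, ILV6 and ILV1, against 19.8% of all genes.

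The library that stood apart at 16 h bore on this comparison. Without 16 h replicate 2 and 64 h replicate 3, 7 genes fell, against 24.1% of all genes in that fit, and ILV6 (-0.75, adjusted p = 0.0322) and ILV3 (-1.25, adjusted p = 0.00789) joined the 5, while ILV1 did not pass (-0.51, adjusted p = 0.21). Single libraries moved 3 of the falls. The value for ILV5 was -3.63 without 16 h replicate 1 and -5.55 without 32 h replicate 3, that for LEU1 was -3.26 without 16 h replicate 3, and ILV2 no longer passed without 32 h replicate 1 (adjusted p = 0.0546) or 32 h replicate 2 (adjusted p = 0.0514). The 10 most abundant genes took 25.3% to 31.7% of the counts in 32 h libraries and 46% to 52.5% in 16 h libraries, whose part in the result was not tested. With library size scaling the median of all genes was 1.1 and that of the 8 genes -1.06, and 4 of the 8 fell, with ILV2 at -1.25 (adjusted p = 0.13). All genes then split into 2809 risen and 285 fallen, where TMM gave 889 risen and 1118 fallen.

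**Figure D3:**
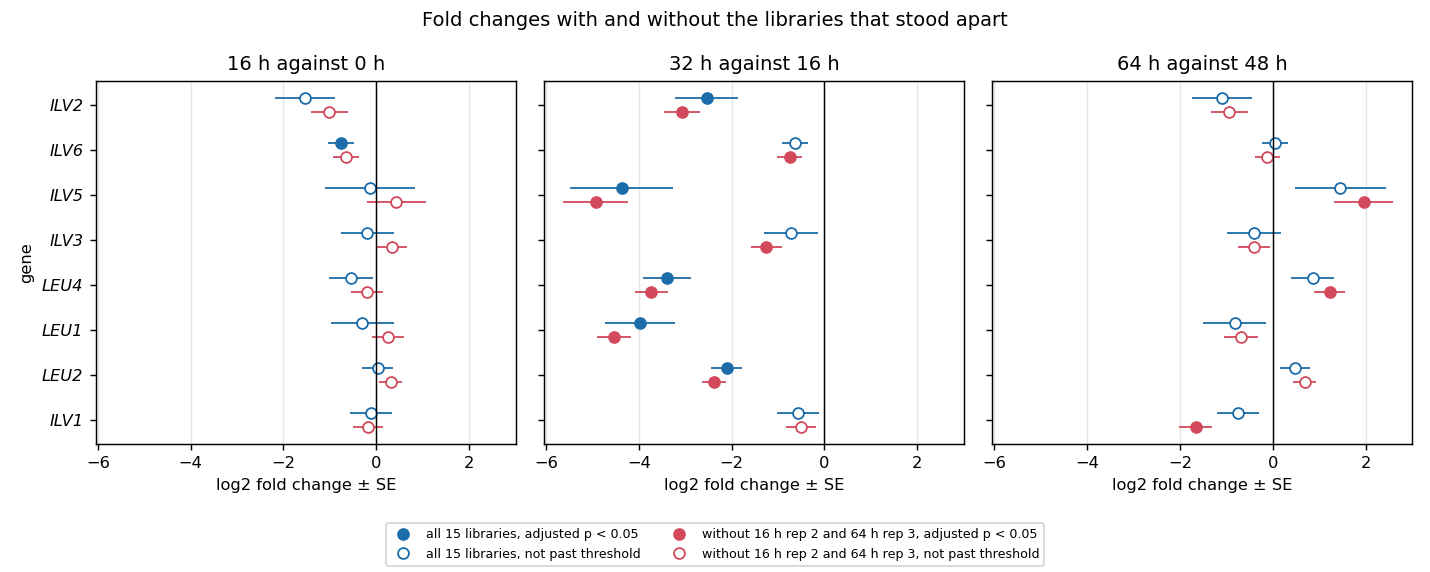
Log2 fold change ± SE of each gene in 3 comparisons (16 h over 0 h, 32 h over 16 h, 64 h over 48 h), from the fit of all 15 libraries and from the fit without 16 h replicate 2 and 64 h replicate 3. Filled points passed an adjusted p of 0.05; in the middle panel 5 points of the full fit and 7 of the reduced fit are filled and all 16 lie below 0 under TMM scaling, while with library size scaling ILV6, ILV3 and ILV1 of the full fit turned positive.

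The summed level of the genes stayed low through the rest of the course. All 3 values at 48 h lay below all 3 at 32 h for ILV6 and LEU2, against 10.7% of all genes, and above all 3 for LEU1, against 9.99%. Between 48 h and 32 h no gene of the 8 passed in edgeR, at an unadjusted p under 0.05 or in DESeq2, against 0% of all genes called in edgeR (347 at an unadjusted p under 0.05). The 48 h comparison with 16 h shares the 16 h libraries with the one above. There 6 genes fell and none rose, against 17.4% of all genes fallen and 14.7% risen, and ILV6, LEU4, LEU2 and ILV1 had all 3 values at 48 h below all 3 at 16 h, against 21.7% of all genes. ILV6 fell in it (-1.02, SE 0.28, adjusted p = 0.0124) in addition to ILV5 (-4.62), LEU1 (-3.73), LEU4 (-3.52), LEU2 (-2.57) and ILV2 (-1.82), which had adjusted p values of 1e-04 to 0.0465, the highest for ILV2. The ILV2 call did not hold in 12 of the 15 fits that left out 1 library. Without 16 h replicate 2 and 64 h replicate 3, 7 genes fell, against 22% of all genes in that fit. ILV3 joined the 6 there (-1.3, adjusted p = 0.00654), while ILV1 did not pass (-0.68, adjusted p = 0.101). With library size scaling 4 genes fell, against 231 of all genes, with ILV2 at -0.12 (adjusted p = 0.878) and ILV6 at a positive value of 0.59 (adjusted p = 0.175). The value for ILV5 was -3.88 without 16 h replicate 1, and that for LEU1 -3.02 without 16 h replicate 3.

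Between 64 h and 48 h none of the 8 genes passed in edgeR with all libraries, at an unadjusted p under 0.05 or in DESeq2, against 0.0158% of all genes fallen and 0% risen in edgeR (1559 at an unadjusted p under 0.05). ILV2 and LEU1 had all 3 values at 64 h below all 3 at 48 h, against 15% of all genes. ILV5 averaged 110 ± 78.1 CPM at 64 h and 39.8 ± 22.1 CPM at 48 h, and LEU4 98.7 ± 55.0 CPM at 64 h and 54.2 ± 14.2 CPM at 48 h. ILV1 averaged 43.3 ± 35.0 CPM at 64 h and 73.1 ± 18.2 CPM at 48 h. The 64 h replicate 3 library stood apart for each of these genes: its level was 0.127 times the mean of replicates 1 and 2 for ILV5, 0.33 times for LEU4 and 3.62 times for ILV1. Without it and 16 h replicate 2, ILV5 rose (log2 fold change 1.96, SE 0.64, adjusted p = 0.0325), LEU4 rose (1.23, SE 0.33, adjusted p = 0.0134) and ILV1 fell (-1.66, SE 0.35, adjusted p = 0.00402). In that fit 14.6% of all genes rose and 15.7% fell. LEU2 was at 0.69 (adjusted p = 0.0541), while ILV2 and LEU1 were at -0.94 and -0.68 (adjusted p = 0.0874 and 0.165). With 64 h replicate 3 alone left out, ILV1 fell (-1.66, adjusted p = 0.00878) and none of the 8 rose, against 529 of all genes fallen and 629 risen.

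Over the whole course from 0 h to 64 h, 7 of the 8 genes fell and none rose, against 25.8% of all genes fallen and 26.6% risen. At an unadjusted p under 0.05 all 8 were lower, against 3710 of the 6327 genes tested in either direction. DESeq2 called all 8 fallen, against 1767 of all genes fallen and 1805 risen. All 3 values at 64 h lay below all 3 at 0 h for each of the 8 genes, against 30.7% of all genes. LEU1 averaged 11.9 ± 5.65 CPM at 64 h and 341 ± 55.9 CPM at 0 h (28.7-fold lower, log2 fold change -4.84, SE 0.80, adjusted p = 0.000191). ILV2 averaged 7.84 ± 1.75 CPM at 64 h and 172 ± 31 CPM at 0 h (21.9-fold lower, adjusted p = 0.000203). ILV5 was 9.77-fold lower, LEU4 9.18-fold, LEU2 4.18-fold, ILV6 3.34-fold and ILV1 3.08-fold, with adjusted p values of 0.000154 to 0.0172. The ILV1 log2 fold change was -2.53 once 64 h replicate 3 was left out, where with all libraries it was -1.62, and with library size scaling ILV1 and ILV3 did not pass. ILV3 was 2.62-fold lower (adjusted p = 0.0602), and passed without 16 h replicate 2 and 64 h replicate 3 (adjusted p = 0.00457). The median of the 8 was -2.63, against -0.02 for all genes.

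The comparison of 64 h with 16 h, which shares libraries with those above, gave 7 fallen genes and none risen, against 20.8% of all genes fallen and 18% risen. ILV6, LEU4, LEU1, LEU2 and ILV1 had all 3 values at 64 h below all 3 at 16 h, against 20.1% of all genes. LEU1 was 23.4-fold lower (adjusted p = 0.000558) and ILV1 2.83-fold lower (adjusted p = 0.0191). Without 16 h replicate 2 and 64 h replicate 3 all 8 genes fell, ILV3 included (-1.71, adjusted p = 0.00256), against 25.2% of all genes in that fit. With library size scaling 4 fell, against 386 of all genes, and without 64 h replicate 1 also 4, against 894 of all genes. Without 64 h replicate 3 the ILV1 value was -2.41, where with all libraries it was -1.50, and without 16 h replicate 3 that of LEU1 was -3.83, where it was -4.55. The ILV5 call (-3.15, adjusted p = 0.0277) did not hold without 16 h replicate 1 or 3, or without any of the 64 h replicates (adjusted p 0.0509 to 0.101). Those of ILV1 without 64 h replicate 1 or 2 (adjusted p = 0.0843 and 0.0718) and of ILV6 without 16 h replicate 3 or 64 h replicate 1 (adjusted p = 0.0529 and 0.053) did not hold either.

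Within a library, the ratio of a gene to another does not depend on the scaling. The catalytic ILV2 relative to the regulatory ILV6, in CPM per kb, was 0.524, 0.582 and 0.259 at 0 h and 0.332, 0.0315 and 0.331 at 16 h. From 32 h on it lay between 0.0416 and 0.207, below every 0 h value. ILV5 relative to ILV3, the next step, was 8.70, 8.89 and 9.89 at 0 h, and 9.97, 3.5 and 9.75 at 16 h. That ratio was 0.387 to 1.27 at 32 h and 0.437 to 0.961 at 48 h, and at 64 h it was 3.45 and 3.48 in replicates 1 and 2 but 0.45 in replicate 3. LEU1 relative to LEU2, likewise consecutive steps, was 0.516 to 1.01 at 0 h and 0.144 to 0.185 at 32 h. These pairs were picked with the values known, and no test was made of them. In each pair the ratio was lower in every 32 h library than in every 0 h library, so that ILV2, ILV5 and LEU1 were each lower relative to their partner at 32 h.

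**Figure D4:**
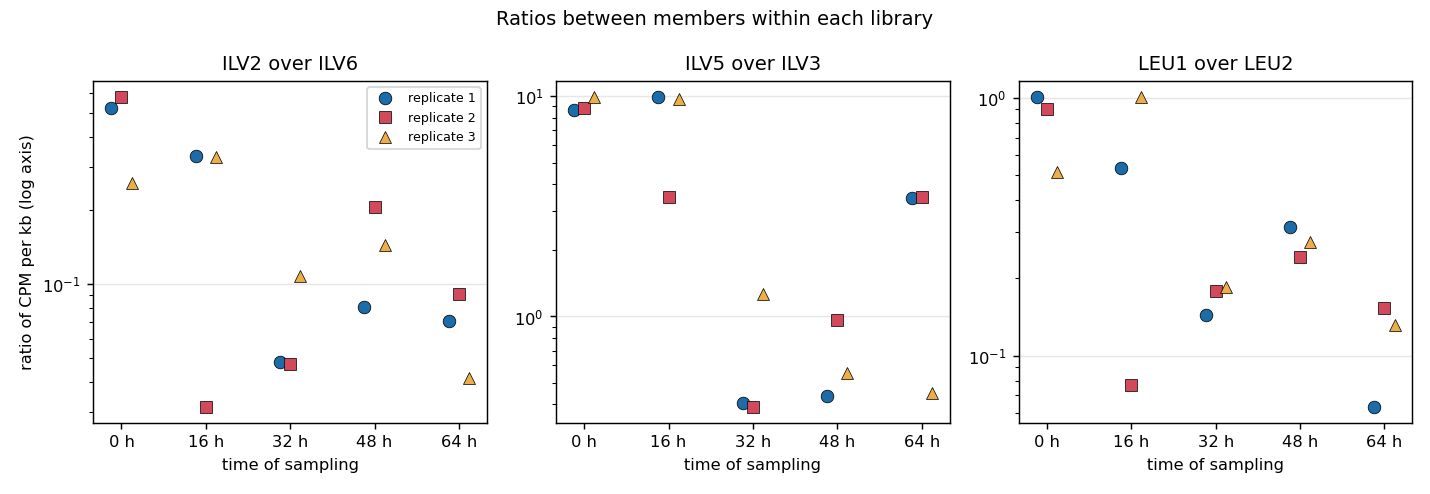
Ratio of CPM per kb between 3 pairs of genes within each library, on log axes, by time of sampling, with a symbol for each replicate. ILV2 over ILV6 runs at 0.259 to 0.582 at 0 h and 0.0473 to 0.108 at 32 h, and ILV5 over ILV3 at 8.70 to 9.89 at 0 h and 0.387 to 1.27 at 32 h, with 16 h replicate 2 below its group mates in all 3 panels.

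The 8 profiles were similar to differing degrees. Over the 28 pairs, Pearson's r of log2(CPM + 1) across the 15 libraries, which share time points and scaling, had a median of 0.807 and ranged from 0.246 to 0.973. LEU4 with LEU2 (0.973) and ILV2 with LEU1 (0.95) were the closest pairs, and ILV5 with ILV1 (0.246) the most distant. Against the mean standardised profile of the other 7, LEU1 had 0.974, ILV2 0.931, LEU2 0.912, LEU4 0.909, ILV6 0.894, ILV5 0.873, ILV3 0.668 and ILV1 0.524. Outside the list, among 2669 candidate genes averaging 20 CPM or more, the 5 genes nearest to the mean profile were LAT1, WICANDRAFT_61438, ERG1, THI6 and SCW11, with r of 0.986, 0.978, 0.974, 0.974 and 0.964. LAT1 encodes a dihydrolipoamide acetyltransferase of the pyruvate dehydrogenase complex and averaged 558, 370, 153, 140 and 115 CPM from 0 h to 64 h. The WICANDRAFT_61438 gene is annotated as a flavoprotein subunit of fumarate reductase and averaged 86.9 CPM at 0 h and 0.287 CPM at 32 h. That 32 h mean is near the floor of the 32 h libraries (0.116 to 0.158 CPM), so the size of the difference is uncertain. ERG1 encodes squalene monooxygenase of ergosterol synthesis, with means of 219 CPM at 0 h and 30.4 CPM at 32 h. THI6, a thiamine synthesis gene in S. cerevisiae, averaged 4250 CPM at 0 h and 127 CPM at 32 h, and SCW11, which encodes a cell wall protein in S. cerevisiae, 77.4 and 3.03 CPM.

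Further genes around the pathway came from a list of 17 entries that found 20 genes, all tested. Of these, 3 rose and 5 fell between 16 h and 0 h, 1 rose and 3 fell between 32 h and 16 h, and 4 rose and 12 fell between 64 h and 0 h. The shares over all genes were 22.6% risen and 17.8% fallen in the first of these comparisons, 14.1% and 17.7% in the next, and 26.6% and 25.8% in the last. With all libraries the counts of the first and next were thus near the background. In the fit without 16 h replicate 2 and 64 h replicate 3, more of the 20 fell between 32 h and 16 h, where 24.1% of all genes fell. Of the 6 genes that make threonine, the substrate of ILV1, 3 fell and none rose between 16 h and 0 h. HOM3, aspartate kinase, stood at 3.52, 2.71 and 3.46 CPM at 16 h, against 108, 126 and 109.7 CPM at 0 h (35.4-fold lower, adjusted p = 9.29e-07). HOM2, aspartate-semialdehyde dehydrogenase, was 4.31-fold lower and HOM6, homoserine dehydrogenase, 4.16-fold lower at 16 h (adjusted p = 0.00114 and 0.000526). Between 32 h and 16 h only 1 threonine gene fell, WICANDRAFT_29453, annotated as a threonine synthase (1.95-fold lower, adjusted p = 0.0161), and that call did not hold without 32 h replicate 3 (adjusted p = 0.0628), and scaling by library size gave it a positive value of 0.18. HOM3 was at 0.09 (SE 0.33, adjusted p = 0.855) in that comparison. Without 16 h replicate 2 and 64 h replicate 3, THR1, homoserine kinase, also fell between 32 h and 16 h (-1.45, adjusted p = 0.0116), where with all libraries it was at -1.14 (adjusted p = 0.0671). Both comparisons use the 16 h libraries, and the difference between the lists was not tested.

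The aminotransferase that completes all 3 amino acids is encoded by 1 gene here, BAT1. It had 198.5, 206 and 242 CPM at 0 h, 97.8, 117 and 149 CPM at 16 h, 102, 125 and 56.2 CPM at 32 h, 102.5, 55.95 and 66.6 CPM at 48 h, and 28.6, 15.2 and 84.4 CPM at 64 h. As for ILV1, the 64 h replicates 1 and 2 were the lowest and replicate 3 was far above them. BAT1 fell between 64 h and 0 h (5.04-fold lower, adjusted p = 0.00203; log2 fold change -2.33, and -3.30 without 64 h replicate 3), and not between 32 h and 16 h (log2 fold change -0.36, adjusted p = 0.614). In the pantothenate branch, which takes the same keto acid as valine and leucine, ECM31, ketopantoate hydroxymethyltransferase, rose between 16 h and 0 h (2.47-fold, adjusted p = 0.00805). Both ECM31 (2.47-fold lower, adjusted p = 0.0118) and PAN5, ketopantoate reductase (3.35-fold lower, adjusted p = 0.00703), fell between 32 h and 16 h. Neither fall passed with library size scaling (log2 fold change -0.10 and -0.50), nor did the rise of ECM31 (0.67, adjusted p = 0.107).

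The known regulators of these genes in S. cerevisiae did not pass in the overall test here: GCN4 had an adjusted p of 0.085, GCN2, the kinase upstream of it, 0.138, and LEU3 0.243. GCN4 averaged 1900 ± 274 CPM at 0 h, 2540 ± 1540 CPM at 16 h, 1830 ± 888 CPM at 32 h, 1690 ± 646 CPM at 48 h and 705 ± 131 CPM at 64 h. It fell between 64 h and 16 h (3.61-fold lower, adjusted p = 0.0174), a call that did not hold without 16 h replicate 1 (adjusted p = 0.0777) or 64 h replicate 1 (adjusted p = 0.069), or with library size scaling (-0.78, adjusted p = 0.209). Between 64 h and 0 h GCN4 fell (2.7-fold lower, adjusted p = 0.041) and GCN2 rose (1.74-fold, adjusted p = 0.0451), but each call was lost in 10 of the 15 fits that left out 1 library and with library size scaling (adjusted p = 0.0752 and 0.119). LEU3 averaged 13.0 ± 5.03 CPM at 0 h, 19.7 ± 8.24 CPM at 16 h and 12.4 ± 1.88 CPM at 32 h. The LEU3 value between 32 h and 16 h was -0.67 (adjusted p = 0.16), and -0.92 (adjusted p = 0.0413) without 16 h replicate 2 and 64 h replicate 3. GCN4 is regulated mainly at translation in S. cerevisiae, which counts of transcripts do not measure.

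Enzymes of the same families that serve other pathways moved in both directions. Of these 7 genes, 3 rose and 3 fell between 64 h and 0 h, against 26.6% of all genes risen and 25.8% fallen. WICANDRAFT_66136, annotated as homocitrate synthase of lysine synthesis and related to LEU4, stood at 153, 44.7 and 94.7 CPM at 16 h, against 540.5, 546 and 549 CPM at 0 h (5.59-fold lower, adjusted p = 0.00047). It did not pass between 32 h and 16 h (log2 fold change -0.45, adjusted p = 0.425), the interval in which LEU4 fell. ACO1, the aconitase related to LEU1, rose 5.5-fold between 64 h and 0 h (adjusted p = 0.00024), where LEU1 was 28.7-fold lower. LEU2 was 4.18-fold lower in that comparison. LYS12, homoisocitrate dehydrogenase, was 4.28-fold lower and IDP1, isocitrate dehydrogenase, 3.94-fold lower (adjusted p = 0.000413 and 0.00621). WICANDRAFT_85133, also annotated as isocitrate dehydrogenase, was 58-fold higher (adjusted p = 3.22e-05). WICANDRAFT_98602 carries the KEGG number of serine and threonine deaminases of the breakdown route. It had 206, 205 and 23.1 CPM at 64 h, against 11.1, 13.1 and 18.25 CPM at 0 h (10.2-fold higher, adjusted p = 0.00345). The same 64 h libraries, replicates 1 and 2, that held the most of this transcript held the least ILV1.

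**Figure D5:**
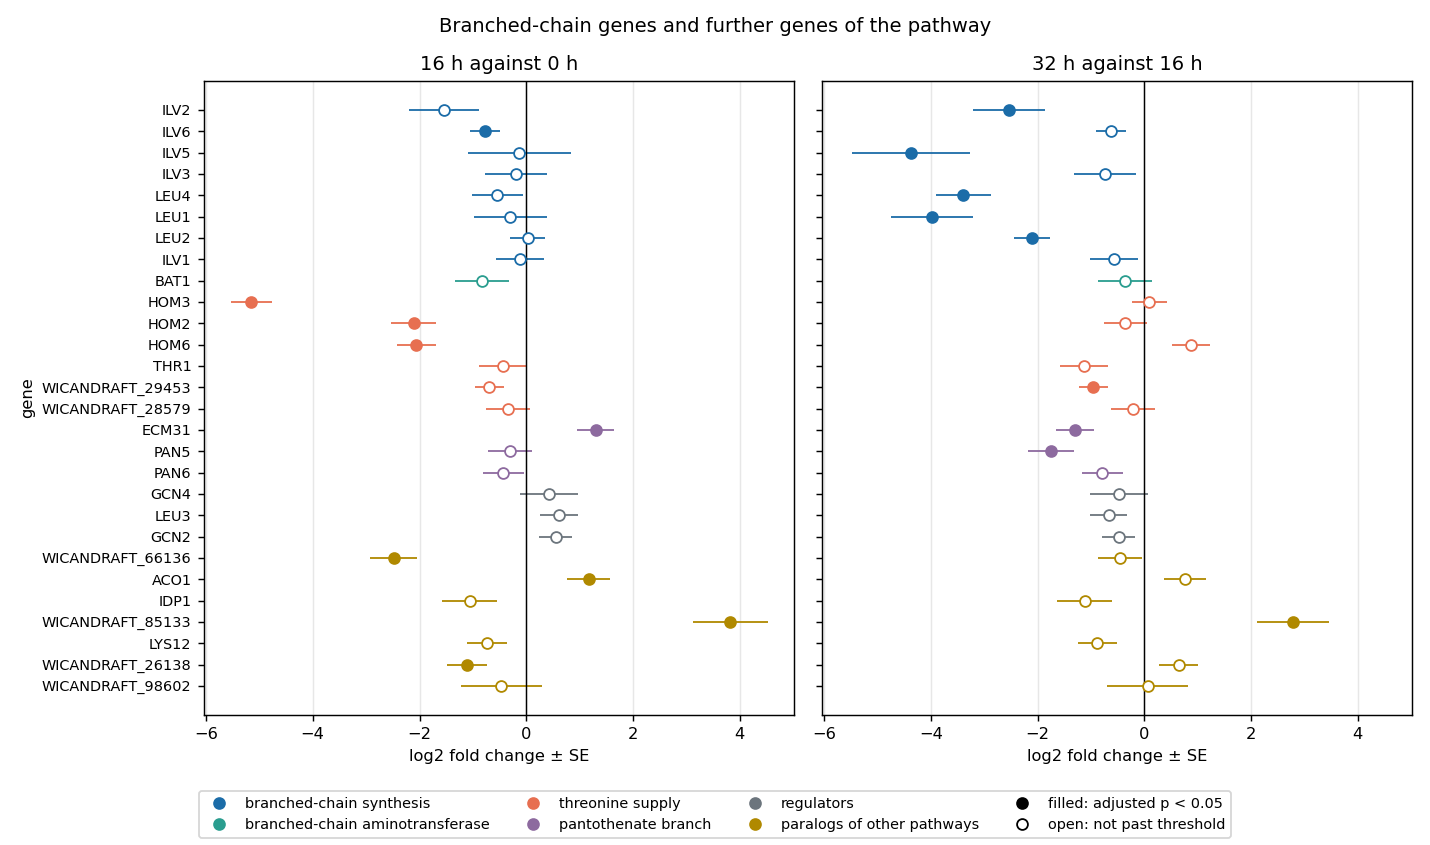
Log2 fold change ± SE for 16 h against 0 h and for 32 h against 16 h of the 8 branched-chain genes and the 20 further genes, coloured by group; filled points passed an adjusted p of 0.05. In the left panel 5 genes of the further list are filled and below 0 beside 1 branched-chain gene. They are HOM3, HOM2 and HOM6 of threonine synthesis, WICANDRAFT_66136 and WICANDRAFT_26138. Filled and above 0 in that panel are ECM31, ACO1 and WICANDRAFT_85133. Over all genes 17.8% fell and 22.6% rose between 16 h and 0 h. In the right panel 5 branched-chain genes are filled and below 0, with 3 genes of the further list (of which WICANDRAFT_29453 turned positive with library size scaling). WICANDRAFT_85133 is filled and above 0 there, and over all genes 17.7% fell and 14.1% rose between 32 h and 16 h.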

How the data were processed

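For each of 15 libraries the authors deposited raw, whole-number counts per gene. Reads were handled with fastp, HISAT2 and HTSeq, per the submitters' processing notes, and no source used here names their genome build. Libraries were made from polyA RNA with the VAHTS Universal V6 kit, per the labels' protocols. All 6571 identifiers matched locus tags of the RefSeq assembly Wican1, which gave symbols and gene lengths. Reads shared between near-identical genes could not be assessed.

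The tests used edgeR 4.0.16 in R 4.3.3: filterByExpr by time point left 6327 genes, scaling was by TMM, and 1 quasi-likelihood model with a mean per time point was fitted to all 15 libraries (10 residual degrees of freedom). Contrasts were adjusted by Benjamini-Hochberg within each, at a threshold of 0.05. SE was approximated as the absolute log2 fold change over the root of F. CPM per kb divides by the annotated gene length. Where a fit left a group with 2 libraries, the model shared its spread estimate across time points. Alternatives were DESeq2 1.42.0, other scalings, no filter, a replicate block, each library left out and 16 h replicate 2 and 64 h replicate 3 left out together. The fit was tested on simulated data, with 50 genes changed at each of 4 sizes in 16 h against 0 h. It called 8% of 2-fold, 68% of 4-fold, 94% of 8-fold and 100% of 16-fold changes, with 4 false calls. Most simulated 2-fold changes thus went uncalled, and not passing does not show that a gene was unchanged.

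Every gene of the rule is named. The list of further genes and the rule for genes of like pattern (the 5 highest correlations) were set with the members; members and lists were chosen with earlier results of these data known. Sequences are not shown here.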

Additional observations from a re-analysis of the deposited data

How the results depend on the processing

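Of the 56 fold changes of the 8 genes (8 genes in 7 comparisons), 26 passed with all libraries, and 18 of these passed under each of the 21 alternatives. The sign differed from the one reported in 32 of 1176 values, 1 of them for a gene that passed. Scaling by library size moved the median over all genes by -0.68 for 16 h against 0 h, 1.17 for 32 h against 16 h, 1.61 for 48 h against 16 h and 0.92 for 64 h against 16 h. Then 3 genes fell between 16 h and 0 h and 4 between 64 h and 16 h. Under that scaling LEU2 was at -0.68 (16 h against 0 h). ILV6, ILV3 and ILV1 were at 0.53, 0.62 and 0.54 for 32 h against 16 h, and at 0.59, 0.99 and 0.85 for 48 h against 16 h. For 48 h against 32 h, ILV6, ILV5, ILV3, LEU4 and ILV1 were at 0.06, 0.12, 0.37, 0.33 and 0.30, and for 64 h against 48 h ILV6 and LEU2 at -0.60 and -0.28. Among the further genes, WICANDRAFT_29453 was at 0.18 (32 h against 16 h) and 0.50 (48 h against 16 h), ECM31 at 0.29 and PAN5 at 0.21 (48 h against 16 h), and WICANDRAFT_66136 at 0.04 (64 h against 16 h). Over all genes it gave 620 risen and 1753 fallen for 16 h against 0 h (1432 and 1126 with TMM), 2809 and 285 for 32 h against 16 h (889 and 1118), 3892 and 231 for 48 h against 16 h (927 and 1102), 2303 and 386 for 64 h against 16 h (1138 and 1314), and 15 and 181 for 64 h against 48 h (0 and 1). For that last comparison DESeq2 called 589 and 287, and median-of-ratios size factors in edgeR 124 and 39.

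Between 16 h and 0 h DESeq2 called 2 of the 8 genes fallen, against 1258 of all genes. The replicate block called 0 fallen there, against 1022 of all genes. It also ended the calls of ILV2 for 48 h against 16 h (adjusted p = 0.0941) and ILV5 for 64 h against 16 h (adjusted p = 0.0714), and changed no other fold change call of the 8. Over the 5 time points 6 of the 8 genes changed with the block, and 6 to 8 when 1 library was left out. In the main fit 68.5% of all genes changed, so these counts say little about the 8 genes. The shares over all genes in the other fits are not given. Replicate numbers share no stated source, and 7 of 30 same-numbered pairs had deviations correlated above 0.1 (range -0.659 to 0.56); a library correlated best with its own number in 10 of 60 cases. Without 16 h replicate 2 and 64 h replicate 3 no gene fell between 16 h and 0 h, and 2 rose and 1 fell between 64 h and 48 h. In that fit ILV5, ILV3 and LEU1 were at 0.43, 0.33 and 0.25 for 16 h against 0 h, and ILV6 at -0.12 for 64 h against 48 h, and over all genes 927 rose and 998 fell between 64 h and 48 h. Leaving out 1 library gave 0 to 2 fallen genes for 16 h against 0 h, where 923 to 1202 of all genes fell. It gave 0 to 1 for 64 h against 48 h (0 to 529 of all genes) and 4 to 8 for 64 h against 16 h (894 to 1508 of all genes). It gave log2 fold changes of -0.88 to 0.43 for ILV5, -0.86 to 0.32 for ILV3, -1.01 to 0.25 for LEU1 and -0.23 to 0.31 for LEU2 for 16 h against 0 h. For 48 h against 32 h they were -0.72 to 0.94 for ILV5, -0.30 to 0.17 for ILV3 and -0.34 to 0.01 for LEU4, and for 64 h against 48 h -0.12 to 0.13 for ILV6. Of the 20 further genes, library size scaling gave 1 risen and 9 fallen for 16 h against 0 h, against 620 and 1753 of all genes. For 32 h against 16 h it gave 5 risen and 0 fallen, against 2809 and 285 of all genes. Leaving out both libraries gave 3 risen and 7 fallen for 32 h against 16 h, against 22.8% of all genes risen and 24.1% fallen. The cause of these changes was not tested. The lowest count of any of the 8 genes was 96, and the effect of depth was not tested.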
